A study of Mus musculus with 15 samples.

Results

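The promoters of cytoskeleton and motor protein genes described here were those whose gene name begins like a kinesin, kinesin light chain, dynein, dynactin, tubulin, myosin, microtubule-associated protein, stathmin, neurofilament, actin, actin-related protein, actinin, tropomyosin, spectrin or ankyrin, among others. The rule found 42 promoters of the 4429 in the interaction table. They carried 397 of its 36353 listings, a listing being a promoter with a distal HindIII fragment to which it was joined. The rule used the name alone and no measured value. The assay was promoter-capture Hi-C: pieces of DNA that touch inside the nucleus are ligated, and ligation products holding a targeted promoter are pulled out with baits and sequenced. It was done on hippocampal nuclei sorted with antibodies to NeuN, a neuronal nuclear protein, and to GFP, which also binds the yellow fluorescent label. All mice carried ArcCreERT2 and a R26R-STOP-floxed eYFP reporter, with the genotype given as +/+. In this line the Arc promoter drives a tamoxifen-dependent Cre, so cells with Arc activity while the drug is present become labelled. Each condition used 10000 nuclei, obtained by pooling the hippocampi of 10 to 12 mice. The 15 libraries form the groups Basal (3 libraries), Early (4), Late (4) and Reactivated (4), named in the titles. The protocol describes 4-hydroxytamoxifen given 1 h before contextual fear conditioning, collection after 1.5 to 2 h or after 5 days, and re-exposure to the fear-inducing cue. The labels used here do not tie those times to the group names and give no age. The treatment label of every library, those of Basal and Reactivated included, reads foot shock without recall, and it gives a different collection day for each library. It thus goes against the group names, so what the mice of each group underwent is not settled by the labels.

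The cytoskeleton of a neuron is built of microtubules, neurofilaments and actin filaments. Kinesins carry cargo mostly towards microtubule plus ends, dynein with its partner dynactin carries it back towards the cell body, and myosins move on actin, which fills the dendritic spines. Remodelling of spine actin and of microtubule dynamics is known to accompany synaptic plasticity in the hippocampus. A promoter can be brought close to distant regulatory DNA by looping of the chromosome, and capture Hi-C records such closeness, not expression.

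The deposited interaction score is a whole number of 2 or more, and the sources used here name no program for it. A fragment with no score in a library was set to 0, so 0 means that no interaction was listed. Scores were compared on the asinh scale, which is close to a log scale for large scores and keeps 0 at 0. Scores were not scaled for library size in the main fit or in the group comparisons, so differences between groups are not adjusted for it. The libraries differed strongly in size: 35 to 12133 listings and summed scores of 3114 to 9590409. The median listed score of all other promoters ran from 10 in Reactivated 2 to 313 in Reactivated 4. Reactivated 1 held 35 listings and Reactivated 2 held 388, against 11574 and 12133 in Reactivated 3 and 4. Some libraries of 1 group were close copies in their fragments. Where the overlap reached 40% of the smaller library's fragments, both were put in 1 library set, which left 9 sets. Replicates 1 and 2 formed a set in Basal, Late and Reactivated, and replicates 3 and 4 did so in Early, Late and Reactivated. Overlap was 48.3% to 100% within these sets and at most 16.7% in any other pair of the same group. The libraries of a set are therefore not shown to be independent. A limma fit with the set as a random block put the correlation within sets at 0.974 for listings, 0.947 for promoter means and 0.917 for called interactions (scores of 5 or more). The main fit and the SDs still counted each library as a replicate, so their SEs and p-values measure only the spread between these libraries. In pooled nuclei, a contact made in more nuclei and a contact made more often per nucleus cannot be told apart. The files hold no expression values, so the sorted cell type could not be checked against its markers.

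The position of the captured promoter fragment is not in the table, so contact distance could not be computed. Promoter sequence came from RefSeq on build GRCm38.p6, which held 29 of the 42 promoters. The fragments themselves are on mm9, for which no sequence was used, and no position was compared between the builds. The 250 bases before the annotated start are shown for 5 members with a fragment among the largest differences between groups, chosen as examples after their values were seen. Capitals mark motifs found on either strand: the HindIII site AAGCTT at which the assay cuts, the cAMP response element TGACGTCA bound by CREB-family factors and its core TGACG, the TATA box TATAAA, the CCAAT box CCAAT and the GC box GGGCGG. Every full cAMP response element also holds the core. Where a gene had several annotated starts, the most upstream one is shown.
Dynlrb1, chr2:155236283-155236532, plus strand: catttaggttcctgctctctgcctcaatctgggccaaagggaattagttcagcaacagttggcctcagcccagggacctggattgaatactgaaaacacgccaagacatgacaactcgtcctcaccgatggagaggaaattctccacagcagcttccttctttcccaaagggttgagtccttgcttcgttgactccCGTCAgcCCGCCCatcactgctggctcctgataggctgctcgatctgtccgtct
Tubb5, chr17:35838302-35838551, minus strand: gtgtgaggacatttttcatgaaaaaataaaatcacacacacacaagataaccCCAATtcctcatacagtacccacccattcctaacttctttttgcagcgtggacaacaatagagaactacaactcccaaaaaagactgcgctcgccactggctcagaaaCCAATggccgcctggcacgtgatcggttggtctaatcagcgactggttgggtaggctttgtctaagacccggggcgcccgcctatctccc
Tubb2a, chr13:34078009-34078258, minus strand: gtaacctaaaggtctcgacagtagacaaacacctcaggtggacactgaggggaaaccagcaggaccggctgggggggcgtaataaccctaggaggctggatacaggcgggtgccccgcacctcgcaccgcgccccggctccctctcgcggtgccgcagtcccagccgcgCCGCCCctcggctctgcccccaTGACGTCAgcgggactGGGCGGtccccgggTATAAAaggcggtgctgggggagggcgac
Kif26a, chr12:112145958-112146207, plus strand: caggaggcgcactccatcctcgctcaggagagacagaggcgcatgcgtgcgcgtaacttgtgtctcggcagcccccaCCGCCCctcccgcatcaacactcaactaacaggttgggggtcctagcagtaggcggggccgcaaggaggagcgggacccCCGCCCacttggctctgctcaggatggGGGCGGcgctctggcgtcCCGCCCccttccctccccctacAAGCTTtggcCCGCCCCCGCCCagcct
Myo5c, chr9:75231764-75232013, plus strand: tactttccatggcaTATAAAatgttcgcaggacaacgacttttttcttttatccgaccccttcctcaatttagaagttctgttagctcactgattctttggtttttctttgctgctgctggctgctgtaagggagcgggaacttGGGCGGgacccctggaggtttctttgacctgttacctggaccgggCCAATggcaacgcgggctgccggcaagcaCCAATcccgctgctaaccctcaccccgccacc
The GC box was in 23 of the 29 members (79.3%), against 62.1% of 3233 other captured promoters with a sequence and 32.7% of all 32851 RefSeq promoter windows. The full cAMP response element was in 3 members, Kif5c, Klc1 and Tubb2a, which is 10.3% of the 29, against 2.94% of the other captured promoters and 1.55% of all windows. The HindIII site was in 5 members (Actn2, Kif26a, Myo10, Myo7a and Tpm1), or 17.2%, against 6.34% of the other captured promoters and 6.22% of all windows. The core TGACG was in 34.5% of members against 28.6% of other captured promoters and 17.8% of all windows. The CCAAT box was in 41.4% against 40.3% and 33.8%, and the TATA box in 13.8% against 9.46% and 12.4%. These are matches of letters and show no binding. A member or other captured promoter was counted if any of its annotated start windows held the motif. The share of all RefSeq windows counts each window by itself, so it is not a like measure.

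The median was 9 fragments per member (quartiles 5 and 13.5, highest 26), against 6 for the 4387 other promoters (quartiles 3 and 11, highest 163). The 95% interval of the members' median from order statistics, 6 to 12, reached the median of other promoters, and the difference was not tested. Myo5c, a class V myosin that carries cargo along actin, had the most with 26 fragments. Actr3, the ARP3 subunit of the complex that nucleates branched actin, had 24. Mapt, which encodes the microtubule-binding protein tau, had 18. Kif2a, a kinesin that depolymerises microtubules, Klc1, a light chain that couples kinesin-1 to cargo, and Stmn1, a stathmin that sequesters tubulin dimers, had 16 each. At the other end, Klc4 and Tuba1a had 1 fragment each. Tuba1a, a major neuronal alpha-tubulin, was listed only with a score of 7 in Late 2.

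Pooled over libraries, members' scores were also higher in the middle of the range. The median listed score was 138.5 for members and 94 for other promoters (quartiles 29 and 414 against 21 and 366). By group the medians were 144 against 66 in Basal, 75 against 76 in Early, 93 against 49.5 in Late and 327.5 against 300 in Reactivated. The members' median was above that of the other promoters in 10 of the 14 libraries that listed any member. These 10 include both libraries of several sets, near ties (65 against 64 in Early 4, 14 against 13 in Basal 3) and Reactivated 2 with 4 member listings (94.5 against 10). It was 289 against 158 in Late 3, 209 against 98 in Late 4, and 378 against 298 in Basal 1. In Early 1 it was 58 against 65, in Early 2 140 against 155, in Late 1 16 against 18 and in Late 2 18 against 19. The members' fragments had a median length of 3266 bp, against 2934 bp for those of other promoters, and the part of fragment length in the score was not tested.

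Members made up 0.960% to 1.27% of the listings in the 14 libraries with any, against 0.948% of promoters. Their share of the summed score varied more, 0.573% in Late 2 to 1.50% in Basal 1. Listings of members numbered 53, 49 and 58 in the Basal libraries, 86, 20, 64 and 79 in Early, 42, 37, 103 and 105 in Late, and 0, 4, 140 and 146 in Reactivated. The group means were 53.3 ± 4.51 (SD, n = 3) for Basal, 62.2 ± 29.6 (SD, n = 4) for Early, 71.8 ± 37.3 (SD, n = 4) for Late and 72.5 ± 81.5 (SD, n = 4) for Reactivated, with the lowest counts in the small libraries Early 2, Reactivated 1 and Reactivated 2. The 4 listings of Reactivated 2 were 3 of Myo5c and 1 of Tubb5.

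**Figure D1:**
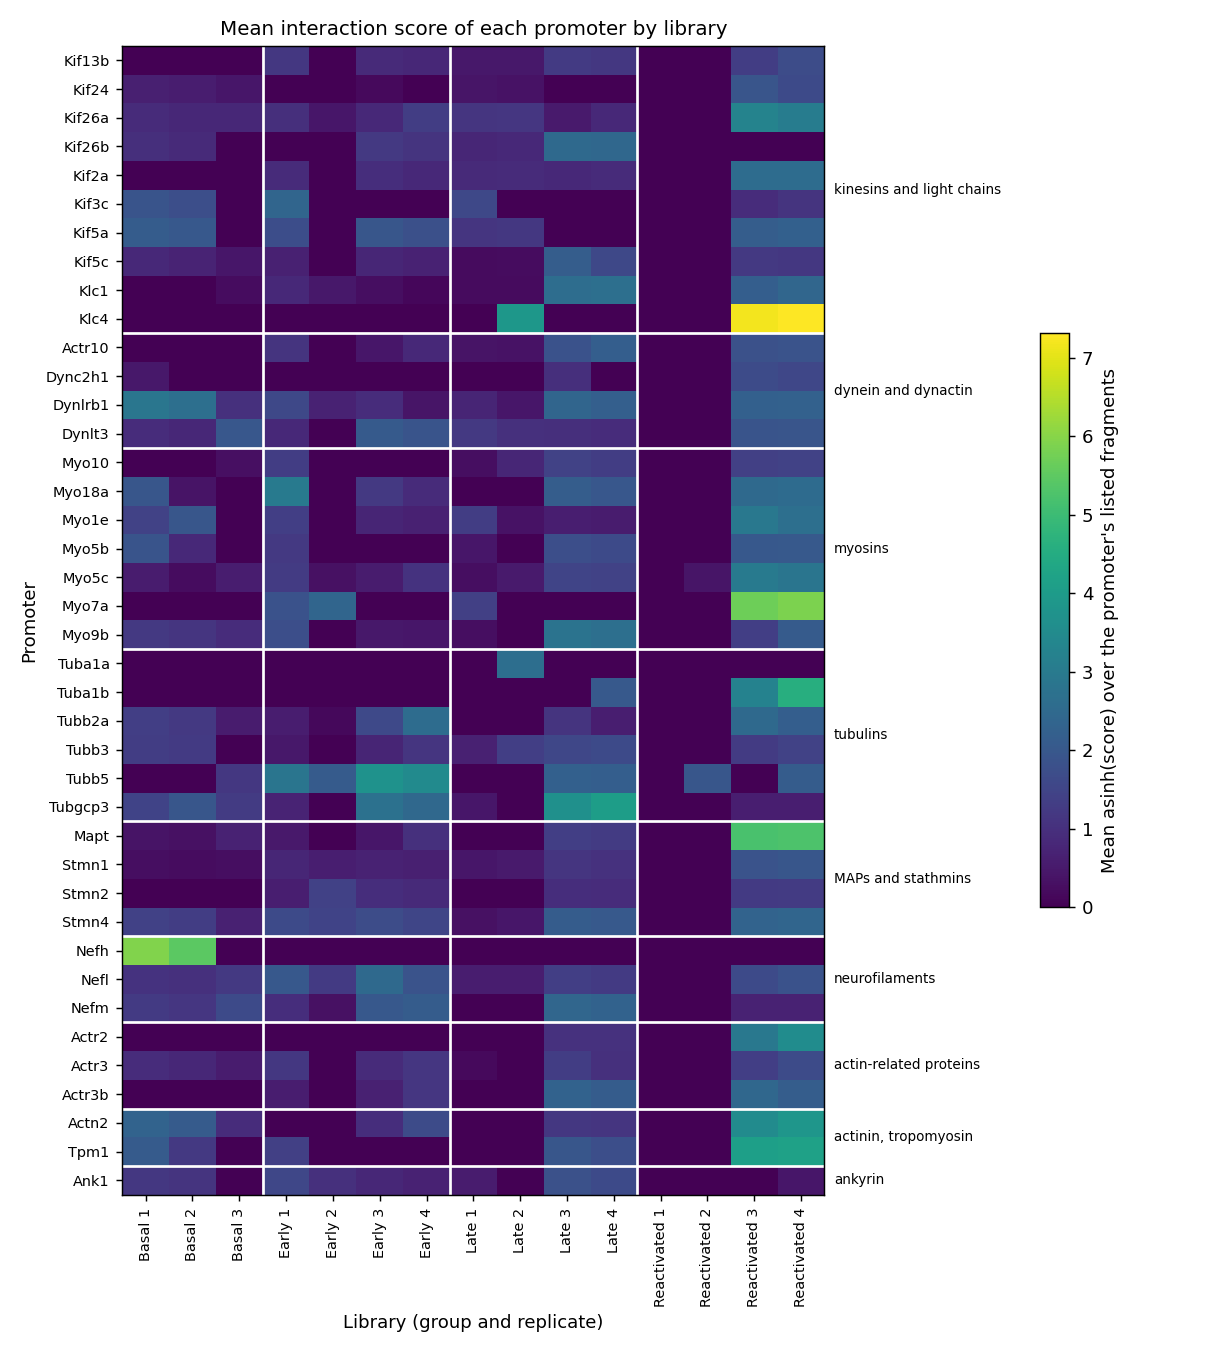
Promoter means of asinh(score), taken over all fragments a promoter has in the table, for 40 of the 42 promoters (rows, grouped by protein role) in each of the 15 libraries (columns, by group and replicate). Reactivated 1 and 2 are dark throughout except for Myo5c and Tubb5 in Reactivated 2, Reactivated 3 and 4 look alike, and Nefh is bright only in Basal 1 and 2.

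Most fragments did not recur. Of the members' listings, 106 (26.7%) were scored in a single library, against 32.8% for other promoters, and 253 (63.7%) in a single library set, against 65.6%. In 3 or more sets were 55 (13.9%), against 11.1%, and in all 4 groups 8 (2.02%), against 1.60%. A listing was scored on average in 2.48 libraries for members and 2.29 for other promoters. Of the members' listings 25 were scored in Basal alone (6.30%, against 8.95% for other promoters), 85 in Early alone (21.4% against 20.9%), 82 in Late alone (20.7% against 19.3%) and 66 in Reactivated alone (16.6% against 18.0%).

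**Figure D2:**
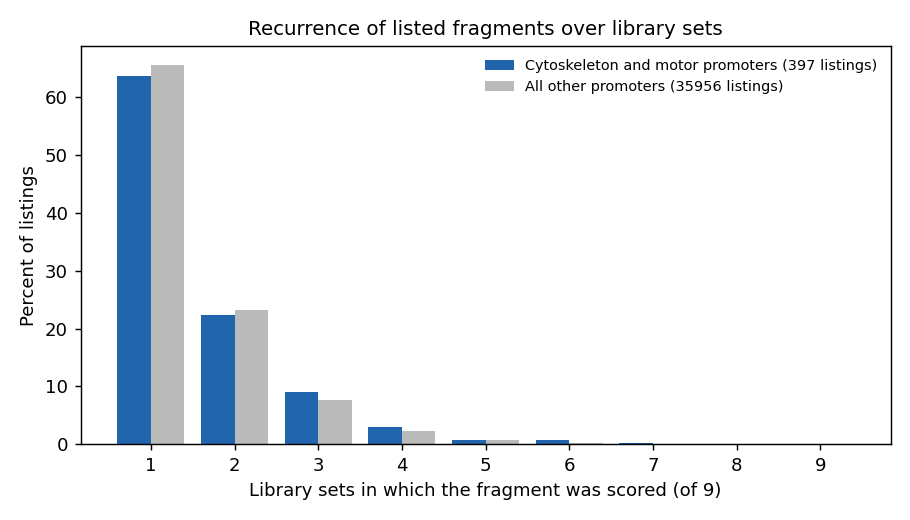
Percent of listings (vertical axis) scored in 1 to 9 library sets (horizontal axis), with the 397 listings of cytoskeleton and motor promoters in blue and the 35956 of all other promoters in grey. The bars of both fall steeply from 63.7% and 65.6% at 1 set, and members are slightly above at 3 and 4 sets.

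Fragments far from the bulk of a promoter's fragments recurred less. With more than 1 Mb from the median position of the promoter's own fragments taken as far, 76 of the members' listings (19.1%) were far, against 22.1% for other promoters. Of these, 78.9% were in a single set, against 60.1% of the members' nearer ones. Other promoters had 78.6% and 61.9%. The far listings also had lower scores, with a median of 68 against 157.5 for the nearer ones of members and 48 against 104 for other promoters.

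Scored fragments of a promoter often lay side by side. Among members, 37 pairs of listings of the same promoter were next to each other on the chromosome (at most 3 bp between their deposited ends), in 22 promoters, and 17.1% of the members' listings belonged to such a run, against 14.8% for other promoters. Of the 37 pairs, 22 (59.5%) were scored in at least 1 common library set, against 51.0% of the pairs of other promoters. The longest run was of 6 fragments of Myo5c, chr9:75087937-75096007 (mm9, 8071 bp), which 8 libraries scored at some point. In it, Reactivated 3 and 4 scored 5 of the 6 fragments, Late 3 and 4 scored 3, and Early 1 scored 3. The run of 4 fragments of Myo18a, an unconventional myosin, at chr11:77600965-77610089 divided by group. Its first 2 fragments were scored in Basal, Late or Reactivated libraries and in no Early one, and its last 2 in Early libraries alone.

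Kinesins and their light chains numbered 10 promoters with 92 listings. Of their listings 72.8% were in a single set. Kif26a, an atypical kinesin, and Klc1 lie near each other on chromosome 12, with 7 protein-coding genes between them in the reference. Their fragments alternated in 3 places, where a Kif26a fragment lay next to a Klc1 fragment. At chr12:113376056-113381264 Klc1 scored 337 and 269 in Late 3 and 4, and 626 and 522 in Reactivated 3 and 4. The adjoining Kif26a fragment, chr12:113381267-113384118, scored 369 and 392 in Reactivated 3 and 4, 127 in Late 4, and 356, 293 and 131 in Early 2, 3 and 4. In the other 2 places the neighbours shared no library: the Kif26a fragments were scored in Reactivated 3 and 4 and the Klc1 ones in Late 3 and 4. Kif2a had no score in any Basal library, and its 16 fragments divided by library set: Late 1 and 2 scored 4 fragments at 13 to 19, none of them scored elsewhere, while Late 3 and 4 scored 464 and 373 at chr13:107746488-107746703 with 317 and 302 in Reactivated 3 and 4. Kif5a and Kif5c encode heavy chains of kinesin-1, the main anterograde motor of axons. Kif5a had 3 fragments, of which 2 were also listed with other promoters. Kif5c had 15, and its highest score, 1360 in Late 3, was on a fragment listed with Mbd5 too.

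Dynein and dynactin promoters (4, with 34 listings) were led in number by Actr10, the ARP11 subunit of dynactin, with 11 fragments. Dynlrb1, a roadblock light chain of dynein, had 10, of which chr2:155051002-155058290 was scored in 7 libraries of 5 sets. Dync2h1, the heavy chain of the dynein that works in cilia, had 6 fragments whose highest score was 62. Myosins (7 promoters, 75 listings) included Myo5b, which moves recycling endosomes, with 7 fragments, and Myo10, known from filopodia, with 12. Of Myo10's listings, 11 of 12 were in a single set.

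Tubulin promoters (6, with 42 listings) held the member scored in the most sets. The fragment chr17:35976714-35977600, listed with Tubb5, a beta-tubulin, and with Flot1, was scored in 9 libraries of 7 sets. Tubgcp3, which encodes a gamma-tubulin complex protein and is counted here with the tubulins because of its name, had a fragment scored in 8 libraries, chr8:12683249-12688387. Its scores there were 23 in Basal 3, 112 and 59 in Early 3 and 4, 42, 2133 and 1420 in Late 1, 3 and 4, and 230 and 229 in Reactivated 3 and 4. Late 3 and 4 stood above all other libraries at that fragment.

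Neurofilament genes encode the light, medium and heavy subunits Nefl, Nefm and Nefh of the axonal intermediate filaments. Nefl and Nefm are adjacent genes on chromosome 14, and Stmn4, another stathmin, is on the same chromosome. The member fragment scored in the most libraries, chr14:68731199-68737403 (mm9), was listed with all 3 of them, so its score cannot be assigned to any of these promoters alone. It scored 848, 492 and 39 in the Basal libraries, 502, 0, 122 and 63 in Early, 0, 0, 1017 and 764 in Late, and 0, 0, 2562 and 2615 in Reactivated. Every group had libraries with a score there and, apart from Basal, also libraries without. The fragment chr14:68716926-68722502 was shared by Nefl and Nefm and scored 12 in Basal 3, 648 and 326 in Early 3 and 4, and 393 and 293 in Late 3 and 4. A Stmn1 fragment shared with Epha10 and Gnl2, chr4:124613546-124614218, was scored in 8 libraries of 5 sets. Its scores were 46, 20 and 44 in the Basal libraries, 5 in Early 4, 24 and 68 in Late 1 and 2, and 145 and 153 in Reactivated 3 and 4. Of all members' listings, 52 (13.1%) were on a fragment listed with more than 1 promoter, against 15.4% for other promoters.

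The actin-related group (Actr2, Actr3 and Actr3b) had 41 listings. Actr2, which encodes ARP2, was without any score in the Basal and Early libraries. It had 1 fragment scored in Late (93 and 86 in Late 3 and 4) and 5 in Reactivated, the highest with 2318 and 2528 in Reactivated 3 and 4. Actn2 and Tpm1 had 14 listings together and Ank1 had 6. Actn2 crosslinks actin filaments, tropomyosin wraps around them, and ankyrin ties spectrin to the membrane.

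The comparison of Early with Basal follows the order of the group names, and the labels do not state its purpose. Stmn1, Stmn2, Stmn4, Nefl and Tubb5 had a mean asinh score above every Basal library in every Early library. That is 5 of 42 members, or 11.9%, against 3.07% of all 4429 promoters. Stmn1 had 0.79, 0.61, 0.70 and 0.63 in the Early libraries, against 0.28, 0.23 and 0.28 in Basal. Stmn2, a stathmin of growing axons, had 0.62, 1.41, 0.94 and 0.87 in Early libraries, against 0 in all 3 Basal libraries. The Early libraries reached these values through different fragments. For Stmn2, Early 1 scored 11 at chr3:8124136-8125367, Early 2 scored 589 at chr3:8063709-8068983, and Early 3 and 4 scored 56 and 38 at chr3:8798747-8799265. None of the 3 fragments was scored in any other library, and each Early library set thus had its own.

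Stmn4 had mean asinh scores of 1.64, 1.46, 1.69 and 1.52 in Early libraries, against 1.42, 1.32 and 0.68 in Basal. Nefl had 2.01, 1.25, 2.49 and 1.87 in Early libraries, against 1.08, 1.01 and 1.22 in Basal. Tubb5 had 2.84, 2.11, 3.72 and 3.49 in Early libraries, against 0, 0 and 1.20 in Basal, or 3.04 ± 0.72 (SD, n = 4) against 0.40 ± 0.69 (SD, n = 3). The Nefl and Stmn4 margins were narrow, since the lowest Early library (Early 2 in both) was close to the highest Basal one. With only the fragments listed with a single promoter, Stmn1 and Stmn2 kept the separation and Stmn4, Nefl and Tubb5 did not. That left 4.88% of members, against 2.62% of all promoters. With all fragments, leaving out each library in turn gave 5 to 9 members above. The 9 were without Early 2 (21.4%, against 13.0% of all promoters). In the other direction Kif24, a kinesin known from centrioles, was lower in every Early library (1 of 42, 2.38%, against 3.77% of all promoters). It had 0, 0, 0.18 and 0 in Early libraries and 0.64, 0.59 and 0.44 in Basal. This count was 4 without Early 1 (9.52%, against 7.97% of all promoters) and 8 without Basal 3 (19.0%, against 16.6%). With only the fragments listed with a single promoter it was 2, Kif24 and Rock2 (4.88%, against 3.71%). In numbers of called interactions, meaning fragments with a score of 5 or more, Stmn1 and Stmn2 were above in every Early library (4.76% of members, against 1.41% of all) and Kif24 below (2.38% against 2.36%). Those above numbered 8 without Early 2 (19.0% against 8.18% of all) and 4 without Basal 3 (9.52% against 4.02%), and those below 3 without Early 1 (7.14% against 5.81%) and 4 without Basal 3 (9.52% against 7.84%).

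**Figure D3:**
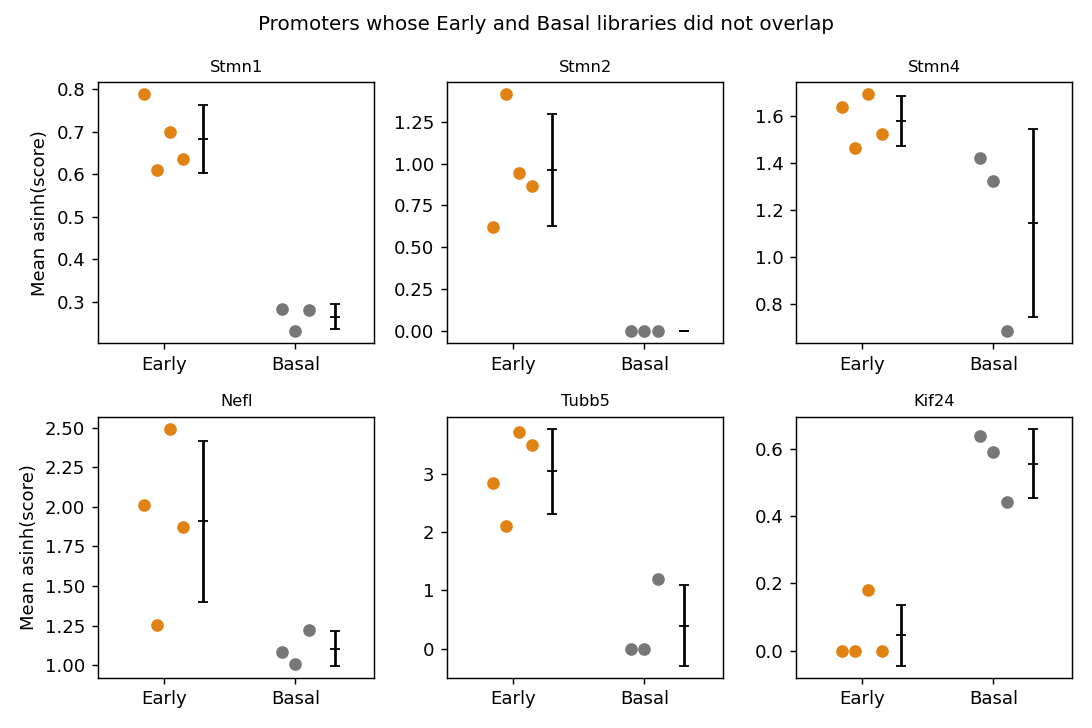
Mean asinh(score) per promoter in the 4 Early (orange) and 3 Basal (grey) libraries, one point per library, with the mean and SD as a bar to the right of the points. Stmn1, Stmn2, Stmn4, Nefl and Tubb5 are above in every Early library and Kif24 is below.

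Limma, a linear model with variances moderated over the whole table, called none of the members in Early against Basal. Of 397 member listings 0 passed an adjusted p of 0.05, as 0% of all 36353 listings did, and 47 had an unadjusted p under 0.05, or 11.8% against 10.6% of all. On promoter means 0 of 42 passed (0% of all) and 3 had an unadjusted p under 0.05 (7.14% against 5.83% of all). On called interactions 0 passed (0% of all) and 2 had an unadjusted p under 0.05 (4.76% against 4.57% of all). The median difference of promoter means was 0 for members and 0 for all promoters. Of the members 20 had a higher mean in Early and 18 a lower one, against 2201 and 1808 of all 4429. Tubb5 had the largest positive difference, 2.64 on the asinh scale (SE 1.00, limma adjusted p 0.675), followed by Myo7a, a myosin of hair cells (1.05, SE 1.21), Stmn2 (0.96, SE 0.49) and Nefl (0.80, SE 0.78).

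The most negative difference was that of Nefh (−3.80, SE 0.90, limma adjusted p 0.0824). It was listed in Basal 1 and 2 alone, the libraries of 1 set, and in neither Basal 3 nor any Early library. Nefh scored 287 and 194 at chr11:4793425-4794427 and 122 and 75 at chr11:5062308-5079599 in Basal 1 and 2. Without Basal 3, Nefh passed the test on promoter means in limma (difference −5.71), 1 of 66 promoters that did so (1.49% of all), with a single Basal set left. Both Nefh fragments are in the table only because Basal 1 and 2 scored them, and Basal 3 was the only Basal library at 0. Passing without Basal 3 is therefore no support for a difference. On the means of the library sets the Nefh difference was −2.85 with a limma adjusted p of 0.594. Dynlrb1 (−1.29, SE 0.95) and Actn2 (−1.13, SE 0.96) were among the next.

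At single fragments, every Early library lacked the Dynlrb1 fragment chr2:155210674-155214524. It scored 0 in all 4 Early libraries, against 3546, 2303 and 27 in Basal. The absence was not particular to Early, since all Late libraries were at 0 too and the Reactivated ones had 0, 0, 264 and 393. The difference between Early and Basal was −7.10 (SE 2.36, limma adjusted p 0.185). Without Reactivated 1 and 2, which enter the fit through the shared variance, the same difference had an SE of 0.95 and a limma adjusted p of 0.00977, and without Basal 3, which leaves 1 Basal set, it was −8.65 with a limma adjusted p of 0.0134. On the means of the library sets the difference was −6.32 with a limma adjusted p of 0.946. Actn2 at chr13:12426173-12427916 also scored 0 in the Early libraries, against 320, 206 and 54 in Basal (difference −5.72, SE 2.19, limma adjusted p 0.268). This Actn2 fragment scored 178 and 148 in Late 3 and 4 and 0 in all Reactivated libraries. In all, 4 of 397 member listings (1.01%) were lower in every Early library, those of Actn2, Dynlrb1, Kif26a and Stmn1, against 0.979% of all listings, and 1 (0.252%) was higher, that of Tubb5, against 0.157% of all. The Tubb5 and Flot1 fragment scored 138, 277, 693 and 343 in the Early libraries, against 0, 0 and 18 in Basal (difference 5.23, SE 2.83, limma adjusted p 0.524). It was thus higher in every Early library than in any Basal one, all 3 Early sets included. Scores at this fragment were not particular to Early, with 0, 0, 434 and 353 in the Late libraries and 0, 179, 0 and 21 in Reactivated. The shares of member listings in each direction were close to those of the whole table.

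Other fragments that differed most were on or off in part of the libraries. Actr3 at chr1:24025296-24027478 scored 0 in all Early libraries, against 2882, 1752 and 0 in Basal (difference −5.61, SE 2.00). Kif26a at chr12:113381267-113384118 scored 0, 356, 293 and 131 in Early libraries, against 0 in all Basal ones (4.63, SE 2.44). Tubb2a, a beta-tubulin, at chr13:34160556-34164681 scored 36, 0, 522 and 266 in Early libraries, against 0 in Basal (4.38, SE 2.17). Limma called none of these, with adjusted p of 0.186, 0.501 and 0.440. In each of the 3 cases at least 1 library of the group with scores had none.

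**Figure D4:**
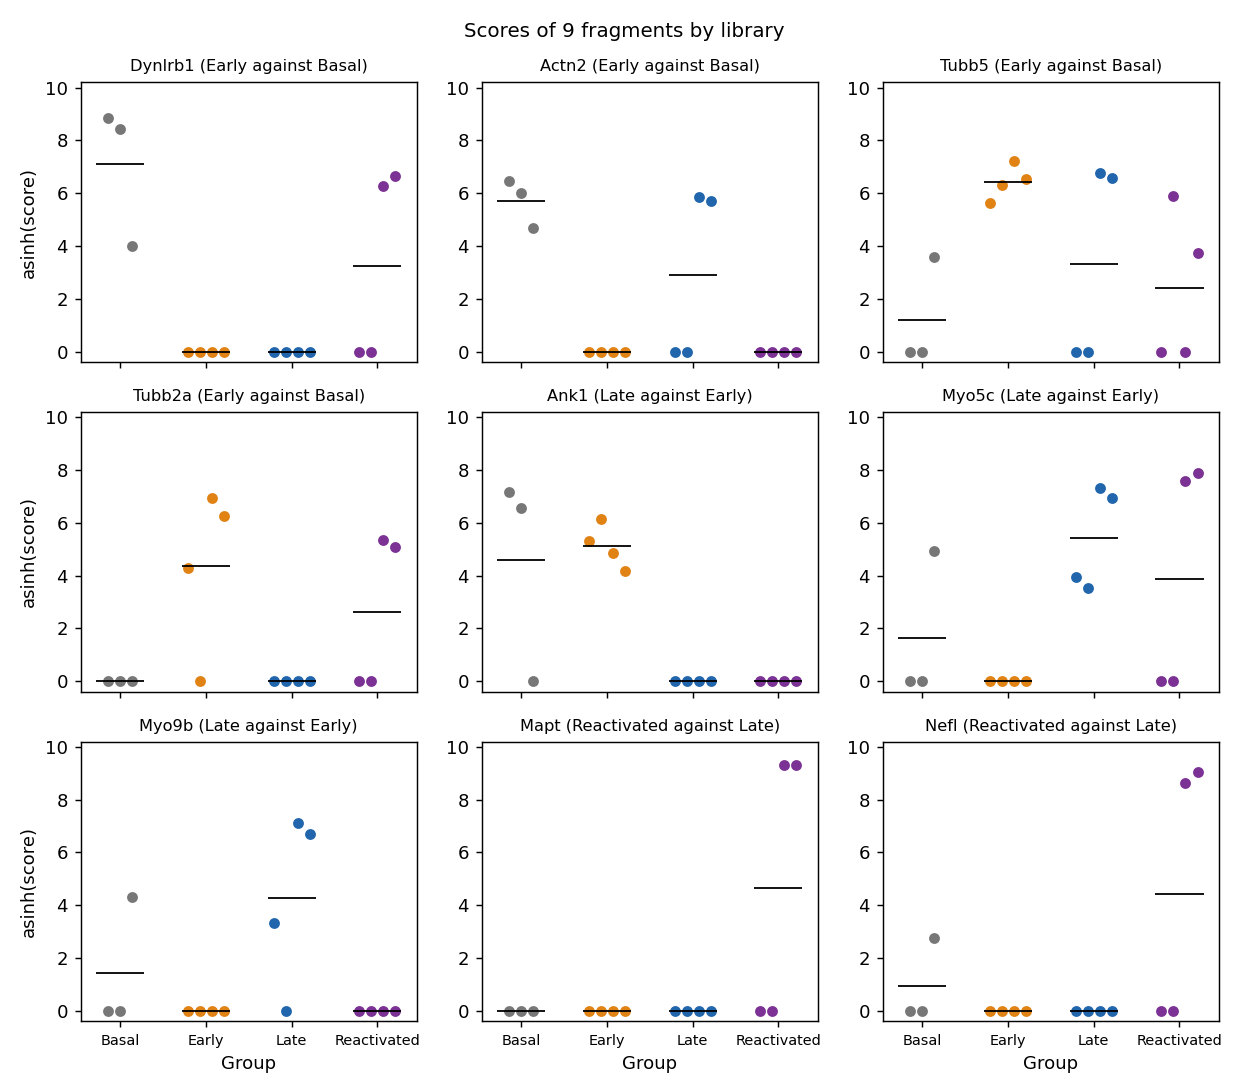
asinh(score) of 9 fragments (panels, each named by its promoter and the comparison in which it was among the largest differences) in the libraries of the 4 groups, one point per library and a line at the group mean. The Dynlrb1 fragment is at 0 in all Early and Late libraries, and the Actn2 fragment in all Early and Reactivated ones. The Ank1 fragment is at 0 in all Late and Reactivated libraries, and the Mapt fragment is above 0 in Reactivated 3 and 4 alone.

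Late against Early gave no member whose promoter mean separated the groups, in either direction, against 2.62% of all promoters above and 1.29% below. The same was true of called interactions, against 2.07% above and 0.704% below. Without Early 2, Kif5a, Nefl and Tubb5 were lower by mean score in every Late library, 3 of 42 or 7.14%, against 7.27% of all promoters. Without Late 3 this was Nefl alone (2.38% against 1.65% of all). In the other direction, Tubb3 was higher without Late 1 (2.38% against 4.56%) and Myo10 without Early 1 (2.38% against 5.17%). By called interactions, Nefl and Tubb5 were lower without Early 2 (4.76% against 4.41%) and Myo10 was higher without Early 1 (2.38% against 4.22%). Limma called 0 of 397 member listings (0% of all), with 77 at an unadjusted p under 0.05 (19.4% against 15.1% of all). On promoter means it called 0 of 42, against 0.0903% of all, which is 4 promoters, and 1 member had an unadjusted p under 0.05 (2.38% against 6.95% of all). On called interactions it called 0 (0% of all), with 0 members at an unadjusted p under 0.05, against 9.54% of all. The median difference was 0.13 over members and 0.06 over all promoters.

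Of all 4429 promoters 2389 had a higher mean in Late and 1816 a lower one, and of the members 26 and 14. Among kinesins and light chains 8 of 10 had a higher mean and 2 a lower one, none past the test. Kif26b had the largest difference, 1.06 (SE 0.54), then Klc1 with 1.00 (SE 0.69), Klc4 with 0.97 (SE 1.40) and Myo9b, an unconventional myosin, with 0.77 (SE 0.75). Klc1 had 0.21, 0.22, 2.62 and 2.67 in the Late libraries, against 0.85, 0.48, 0.28 and 0.13 in Early. Late 3 and 4 were above all Early libraries and Late 1 and 2 were within their range, and the same 2 libraries carried the Late values of many members. Negative differences were largest for Tubb5 (−1.93, SE 0.93, limma adjusted p 0.707), Nefl (−0.96, SE 0.73), Tubb2a (−0.81, SE 0.72) and Kif5a (−0.79, SE 0.78).

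Fragments that separated the groups were 1 in each direction. The Myo5c fragment chr9:75072232-75076202 scored 26, 17, 742 and 509 in Late libraries, against 0 in all Early ones (difference 5.43, SE 2.38, limma adjusted p 0.276). It also scored 69 in Basal 3 and 989 and 1356 in Reactivated 3 and 4. The Ank1 fragment chr8:24071516-24078824 scored 0 in all Late libraries, against 101, 231, 65 and 32 in Early (difference −5.12, SE 2.18, limma adjusted p 0.276). It scored 644 and 360 in Basal 1 and 2 and nothing in Reactivated libraries. Each is 0.252% of member listings, against 0.286% of all listings that were higher and 0.0605% that were lower in every Late library.

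Myo9b at chr8:73463366-73475658 scored 14, 0, 608 and 404 in Late libraries, against 0 in Early (4.28, SE 1.80). Fragments of the Myo18a run already described, with 1 fragment between them, differed in opposite directions. At chr11:77601719-77603566, shared with Aldoc, the scores were 0, 0, 1355 and 1018 in Late libraries, against 0 in Early (3.88, SE 1.87). At chr11:77604250-77610089 they were 0 in Late libraries, against 234, 0, 165 and 108 in Early (−4.33, SE 1.65). Tubb2a at chr13:34160556-34164681 was at 0 in all Late libraries, against 36, 0, 522 and 266 in Early (−4.38, SE 2.00). Limma adjusted p ranged from 0.276 to 0.299 for these 4 fragments.

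Reactivated against Late was limited by the libraries. Reactivated 1 listed no member and Reactivated 2 listed 4, so that 40 of the 42 members were at 0 in both. Kif26b was the member below in every Reactivated library, with 0 in all 4 of them, against 0.78, 0.84, 2.51 and 2.45 in Late (difference −1.64, SE 0.54, limma adjusted p 0.278). It is 1 of 42 (2.38%), against 2.69% of all promoters, and 2.38% against 2.52% for called interactions. Without Late 2 there were 2, with Ank1 added by mean score (4.76% against 4.00% of all promoters), and without Late 1 there were 2 by called interactions, with Tubb3 added (4.76% against 3.70%). The Kif26b values of Reactivated 3 and 4 were 0 too, although these are the largest libraries. No member was above in every Reactivated library, against 0.0677% of all promoters by mean score and 0.0681% by called interactions. At single fragments no member separated the groups, against 0.00275% above and 0.349% below of all listings.

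Limma called 0 of 397 member listings (0% of all), with 108 at an unadjusted p under 0.05 (27.2% against 26.2% of all). On promoter means it called 0, against 0.0677% of all, which is 3 promoters, and 2 members had an unadjusted p under 0.05 (4.76% against 13.8% of all). On called interactions it called 0 (0% of all), and 3 members had an unadjusted p under 0.05 (7.14% against 14.4%). The median difference was 0.08 for members and 0.18 for all promoters. Without Reactivated 1 and 2, limma called 103 member listings (25.9%), all higher, and 9131 of all 36151 (25.3%). It then called 17 of the 42 promoters by mean score (40.5%), 16 of them higher, and 1942 of all 4428 (43.9%). The members' shares were near those of the whole table. The remaining libraries, Reactivated 3 and 4, are a single set that shared 95.7% of the fragments of the smaller, so these calls rest on 1 set. With each set entered as its mean, limma called 0 of the 42.

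Mapt showed the pattern most fully. It had 13 called interactions in each of Reactivated 3 and 4 and 0 in Reactivated 1 and 2, against 0, 0, 4 and 4 in Late. Its mean asinh score was 0, 0, 5.22 and 5.28 in Reactivated libraries, against 0, 0, 1.35 and 1.28 in Late (difference 1.97, SE 1.00, limma adjusted p 0.390). Without Reactivated 1 and 2 the difference in called interactions was 11.0 (SE 1.67, limma adjusted p 0.000118). That fit had a single Reactivated set and called 28.1% of all promoters at this level. The fragment chr11:104096093-104098204 scored 5501 and 5580 in Reactivated 3 and 4 and was listed in no other library (difference 4.66, SE 1.70, limma adjusted p 0.141). The neighbouring fragment chr11:104098207-104103227 scored 256 and 356 there. Both scores of the first fragment were the highest of any member.

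Other positive differences were those of Klc4 (2.66, SE 1.40), Myo7a (2.55, SE 1.12) and Tuba1b, an alpha-tubulin (1.45, SE 0.78). The single Klc4 fragment, shared with Ptk7, scored 655 and 752 in Reactivated 3 and 4 and 24 in Late 2. Myo7a had 3 fragments within 8729 bp, all scored in Reactivated 3 and 4 (590 and 757, 27 and 30, 206 and 241). Dynlrb1 at chr2:155050613-155050999 scored 0, 0, 3644 and 3546 in Reactivated libraries, against 0 in Late (4.44, SE 2.39). This Dynlrb1 fragment was not particular to Reactivated, with 419, 234 and 7 in the Basal libraries and 68 and 29 in Early 3 and 4. Nefl at chr14:119235884-119240041, on the same chromosome but far from its other fragments, scored 0, 0, 2818 and 4161 in Reactivated libraries, against 0 in Late (4.42, SE 1.76). The only other score of this Nefl fragment was 8 in Basal 3. In all of these the Reactivated group overlapped Late through its libraries 1 and 2.

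Negative differences were largest for Tubgcp3 (−1.74, SE 0.96), Kif26b, Ank1 (−0.89, SE 0.52) and Nefm (−0.82, SE 0.72). Tubgcp3 had 0, 0, 0.61 and 0.61 in Reactivated libraries, against 0.44, 0, 3.68 and 4.08 in Late, where Late 3 and 4 stood high. Among fragments, Tubb3, the neuronal beta-III tubulin, had one at chr8:125894111-125911490 that scored 1495 and 891 in Late 3 and 4 and nothing elsewhere (−3.87, SE 1.55, limma adjusted p 0.141). The Myo9b and Myo18a fragments of Late 3 and 4 were also at 0 in every Reactivated library (−4.28, SE 1.80, and −3.88, SE 1.87).

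**Figure D5:**
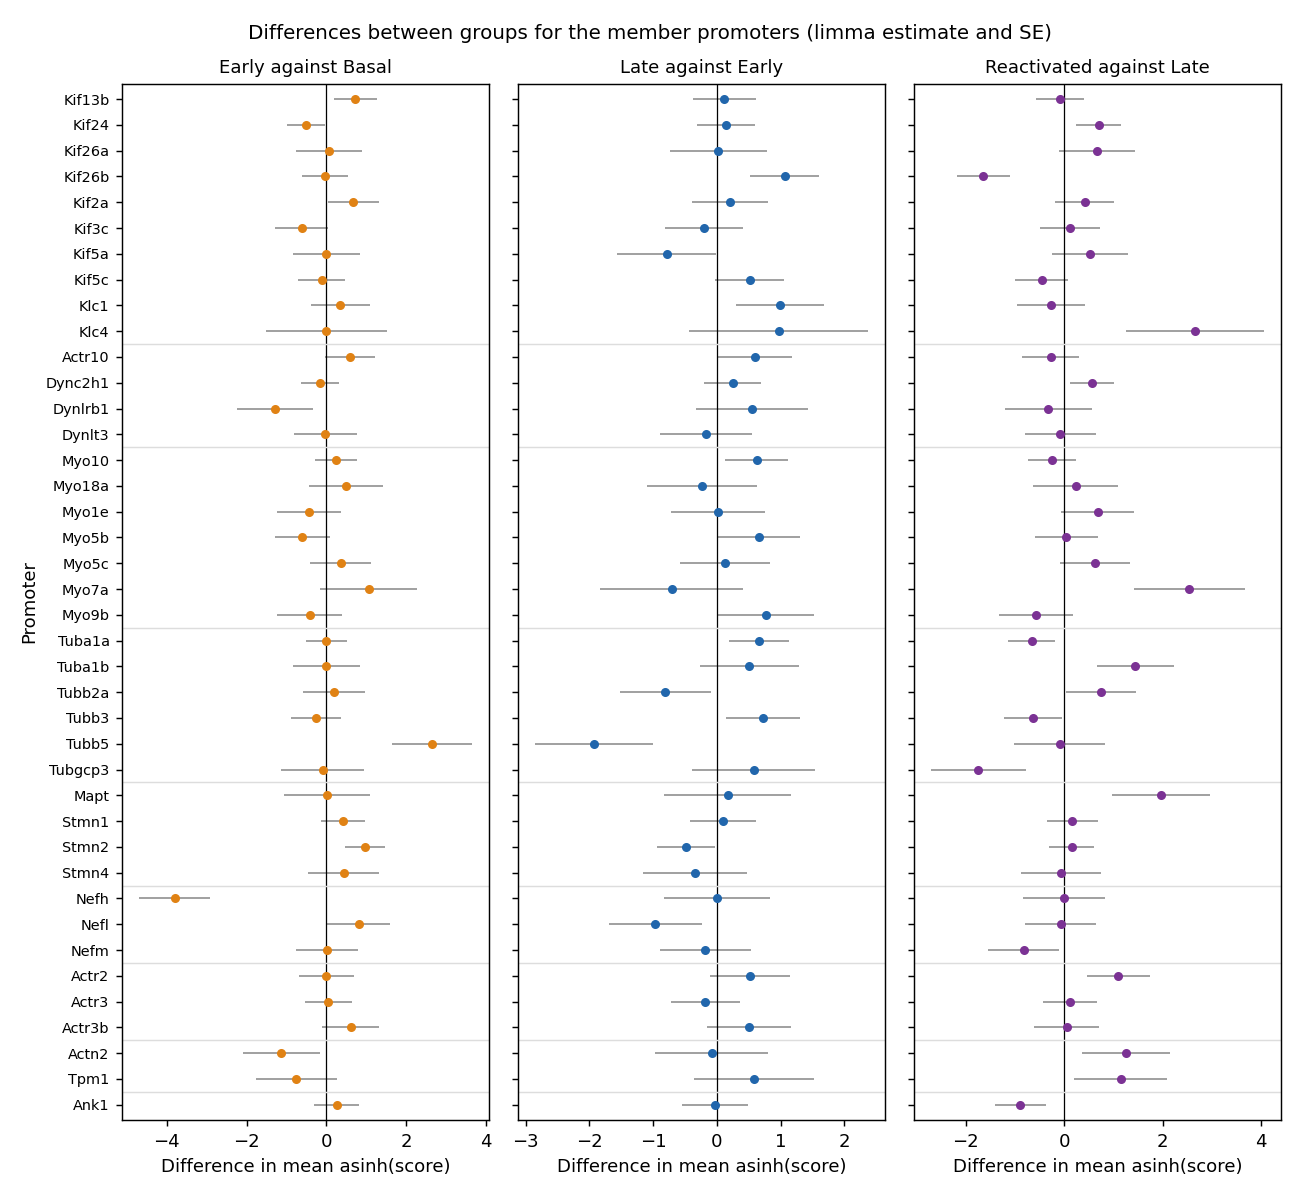
Difference in mean asinh(score) with its SE for 40 of the 42 promoters (rows, by role) in Early against Basal, Late against Early and Reactivated against Late. Most points lie within 1 on either side of 0, Nefh is the lowest in Early against Basal, and Klc4, Myo7a and Mapt are the highest in Reactivated against Late.

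Promoters of other cytoskeletal regulators were counted by the same measures. The list of other actin regulators held 39 promoters with 346 listings, that of other microtubule and transport regulators 32 with 260, and that of other intermediate filaments, septins and lamins 6 with 39, each with a median of 7 fragments. Limma called 0 of the 39, 32 and 6 by mean score in each of the 3 comparisons. At an unadjusted p under 0.05 there were 1, 2 and 0 of them in Early against Basal, where 5.83% of all promoters were. In Late against Early there were 4, 3 and 0 (6.95% of all promoters), and in Reactivated against Late 7, 5 and 1 (13.8%). By mean score, 0 of the 39 actin regulators and 2 of the 32 microtubule regulators were above in every Early library (3.07% of all promoters), and 1 and 2 below (3.77%). In every Late library 3 and 0 were above those of Early (2.62%) and 2 and 1 below (1.29%). In Reactivated against Late, and for the 6 filament promoters in each comparison, there was none.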

How the data were processed

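Promoter-capture Hi-C libraries of sorted mouse hippocampal nuclei were compared. The authors deposited a table with a score for each promoter and distal fragment in each library, on mm9 per the submitters' processing notes. The program, aligner and filters behind the score do not appear in the labels or file headers used here. A missing score was set to 0, and scores were not scaled for library size in the main fit. The 15 libraries were grouped by title, because treatment labels conflicted. Scores were transformed with asinh and tested with limma 3.58.1 in R 4.3.3 (variance trend, robust moderation) for each listing, for promoter means and for counts of scores of 5 or more. One fit held all libraries, with 3 contrasts and Benjamini-Hochberg adjustment over the whole table at 0.05. Library depth is known only as listings and summed scores, so no counting interval was given. No filter on low values was used, so all 397 listings of the 42 members were tested. Named per comparison were the 4 promoters and 3 fragments with the largest difference each way, and over all groups the 6 promoters with the most fragments, the first of each role, and the 6 most recurrent fragments. Members whose groups did not overlap, and further examples by role, were named after their values were seen. Members and lists were chosen with earlier results of these data known. Results that name 2 of the 42 promoters are not reported here, although both stay in the counts. The tests were checked on simulated data, made by shuffling the values within each library. The shuffling removed the likeness between libraries of a set. The check therefore cannot show how the tests behave with such sets. Figures were drawn with matplotlib 3.10.9.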

Additional observations from a re-analysis of the deposited data

Results flagged for a closer look

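In groups of 4 libraries, 11 of 87 checked values (12.6%) had a single library standing apart from the other 3, and chance flags about 1 in 20 groups of continuous values. That rate does not hold for promoters scored in 1 library and at 0 in the other 3, which always stand apart in this way, as in Tpm1, Klc4, Myo7a, Tuba1b and Ank1. Early 2, the smallest Early library, accounted for 3 of them. It listed 14 members, against 29 to 32 in the other Early libraries, its Kif2a mean asinh score was 0, against 0.83 to 0.97, and its Kif5a mean was 0, against 1.74 to 1.95. In Early 1 the Tpm1 mean was 1.40, with 0 in the other Early libraries.

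Among Late libraries, Klc4 was at 3.87 in Late 2, Myo7a at 1.38 in Late 1 and Tuba1b at 2.03 in Late 4, each with 0 in the other 3. The members' share of listings was 0.986% in Late 2, against 1.22% to 1.27% in the other Late libraries. Ank1 was at 0.44 in Reactivated 4 and at 0 in the other Reactivated libraries. Reactivated 1, with 35 listings in all, held 0% of its listings and 0% of its summed score on members, against 1.03% to 1.21% and 1.04% to 1.13% in the other Reactivated libraries.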

How the results depend on the processing

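The small libraries and the duplicate-like sets limit these results. Called members numbered 0 in the 3 comparisons and at the 3 levels. Without Reactivated 1 and 2 limma called 2 listings in Early against Basal (Dynlrb1 and Kif26a, 0.504% against 0.539% of all), and, in Reactivated against Late, 103 listings, 17 promoters by mean score and 14 by called interactions (33.3% against 28.1% of all). Leaving out each library in turn gave 0 to 15 listings in Early against Basal (15 without Basal 3, all lower, 3.90% against 4.08% of all), 0 to 53 in Reactivated against Late (53 without Reactivated 1 and also without Reactivated 2, 13.4% against 13.5% of all in each), 0 to 2 promoters by mean score in Early against Basal (2 without Basal 3, with Nefh among them, 4.76% against 1.49%), and 0 to 1 by called interactions in Early against Basal (Nefh, without Basal 3, 2.38% against 0.159%) and Reactivated against Late (Mapt, without Reactivated 1 or 2, 2.38% against 4.38% and 4.34%). The cause was not tested. The members' median score ranged from 117 to 163 and the share in 3 or more library sets from 9.35% to 14.0%. With only fragments listed with 1 promoter, 70.1% of members' listings were in 1 set, against 74.0% for other promoters, and 10.1% in 3 or more, against 6.86%. Members stayed on the same side of other promoters in each setting run. Of 1045 alternatives for the 42 named differences none turned the direction, 2 left no difference (Kif5a in Late against Early with fragments listed with 1 promoter, Klc4 there without Late 2), and 17 passed the threshold. These 42 were picked as the largest differences in the same libraries. A kept direction was therefore likely from the start and is no support for them. Same-numbered libraries showed little common deviation (correlations −0.0368 to 0.0667). Since 84.7% of all values were 0, such correlations cannot exclude a pairing. A fit with the replicate number as a block called 0 members in each comparison. So did fits on scores scaled to the library sum, with quantile normalization, and with the library set as a random block.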
